A study of Mus musculus with 6 samples.

Results

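This account covers 10 mouse genes that mark alveolar macrophages or handle their lipid, in lungs with and without exposure to cigarette smoke. All probe sets with 1 of these genes as their single symbol in the platform annotation were taken, which gave 15 of the 12488 probe sets on the array, for 10 of 8251 genes. The macrophage genes were Chil3, Marco, Mrc1, Msr1 and Cd68, and the lipid genes were Cd36, Lpl, Plin2, Abca1 and Abcg1. Total lung RNA was hybridised to 6 Affymetrix arrays, with 1 smoked and 1 control array for each strain, named C57, DBA and ICR in the labels. Smoked mice received the smoke of 3 cigarettes a day on 5 days a week for 4 weeks, and control mice are labelled only as normal lung. The labels give no age, sex, genetic change or further treatment for any group, and the labels number every sample as mouse 1 without saying whether animals were pooled. No group within a strain had replicates, so the 3 strain pairs were the replicates of the smoke effect.

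Alveolar macrophages live on the air side of the lung, where they engulf inhaled particles and take up spent surfactant lipid. Scavenger receptors bring in particles and modified lipoproteins, lipases and fatty acid transporters bring in fatty acids, lipid droplets store what is not burnt, and cassette transporters pass surplus cholesterol out to lipoproteins. Several of these genes are not limited to macrophages: Lpl and Cd36 are also active in fat, muscle and capillary endothelium, and Chil3 is also made by immature neutrophils and monocytes. In whole lung RNA, fewer cells of a type and less RNA per cell cannot be told apart.

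Libraries that stand apart are given first. The ICR smoked array was the dimmest, with a median deposited intensity of 25.9 against 52.2 on the ICR control array and 60.1 to 84.8 on the C57 and DBA arrays. Its 3' to 5' beta-actin ratio was 4.75 against 1.63 on the ICR control array. This ratio was 2.51 and 2.75 on the C57 smoked and control arrays, and 1.66 and 1.46 on the DBA smoked and control arrays. The 12 neutrophil markers measured summed to 1637 on the DBA smoked array and to 19371 on the DBA control array, against 1229 to 3289 on the C57 and ICR arrays. The 7 liver markers measured summed to 4067 on the DBA smoked array and 514 on the DBA control array, against 77.0 to 298 on the others. Lung identity was present on every array, with the 5 alveolar type II cell markers summing to between 11459 and 24803. Intensities below are as deposited, and differences are of log2(intensity + 8.05) after quantile normalization between arrays, where 8.05 is the 20th percentile of all values.

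Promoter sequence was available in the RefSeq table (GRCm38.p6) for 7 of the 10 genes, as 250 bases before and 50 bases from the start site. The Chil3 window (chr3:106167515-106167814, minus strand) is shown because Chil3 was the 1 member called for a difference in smoke response, and the Plin2 window (chr4:86670010-86670309, minus strand) because it alone of the 7 held the GCGTG core that the aryl hydrocarbon receptor, the sensor of smoke hydrocarbons, is known to bind.
Chil3: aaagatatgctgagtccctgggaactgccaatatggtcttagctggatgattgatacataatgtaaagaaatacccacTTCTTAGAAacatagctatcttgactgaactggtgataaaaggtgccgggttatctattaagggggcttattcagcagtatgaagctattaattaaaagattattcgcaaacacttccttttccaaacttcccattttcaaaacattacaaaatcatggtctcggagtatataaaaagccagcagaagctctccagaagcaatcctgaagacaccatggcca
Plin2: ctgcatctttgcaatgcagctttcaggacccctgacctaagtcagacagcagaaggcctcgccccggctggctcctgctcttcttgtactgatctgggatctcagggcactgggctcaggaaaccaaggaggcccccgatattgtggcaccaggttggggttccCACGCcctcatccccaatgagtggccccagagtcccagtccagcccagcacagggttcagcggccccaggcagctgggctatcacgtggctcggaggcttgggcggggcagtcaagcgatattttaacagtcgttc
Capitals in Chil3 mark TTC and GAA spaced by 3 bases, the palindrome that STAT factors are known to bind, from base -172 to -164 counted from the start site. It was searched after the values were seen, reads the same motif on both strands, and occurs in 8.30% of the 32851 windows in the table. Capitals in Plin2 mark the GCGTG core read on the opposite strand, from base -86 to -82, a match found in 32.4% of all windows. The antioxidant response core (12.4% of windows), the PU.1 motif (3.20%) and the exact direct repeats spaced by 4 bases (0.0152%) and by 1 base (0.0396%), forms bound by LXR and PPAR receptors, were searched on both strands and matched 0 of the 7 member windows. The exact repeats are so rare in all windows that their absence from 7 cannot tell whether these genes have such sites. Imperfect repeats were not searched. TATAAA, also searched later, was found in Chil3 from base -3 to 3 and in Abca1 from -29 to -24 (13.6% of windows).

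The first question was what smoke did to the macrophage genes. Chil3, a secreted chitinase-like lectin of lung macrophages also called Ym1, had an intensity of 1663 in the C57 smoked lung and 660 in the C57 control lung. In DBA it read 447 in the smoked lung and 2262 in the control lung. In ICR it read 675 in the smoked lung and 1576 in the control lung, on arrays of unequal brightness. Thus the smoked value was the higher one in C57 and the lower one in DBA and ICR. After normalization the smoked lung was 2.61-fold higher in C57 (log2 1.38), 6.17-fold lower in DBA (log2 -2.63) and 1.25-fold lower in ICR (log2 -0.33). Without scaling between arrays the ICR difference was -1.21. Chil3 has a close relative, Chil4, which is not analysed here, and whether the Chil3 probe set also reads Chil4 was not tested.

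Cd68, a lysosomal membrane protein used as a general macrophage marker, followed the same signs at a smaller size at the brighter of its probe sets. It read 149 in the smoked and 93.2 in the control lung of C57. In DBA it read 188 in the smoked and 274 in the control lung, and in ICR 79.4 in the smoked and 161 in the control lung. The normalized differences were 0.62 in C57, -0.84 in DBA and -0.02 in ICR. The dimmer Cd68 probe set lay between 0.822 and 2.06, below the added constant on all 6 arrays, and carries no usable difference.

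Mrc1, the mannose receptor CD206, read 146 in smoked and 104 in control lung of C57, 110 and 111 in smoked and control lung of DBA, and 77.9 and 165 in smoked and control lung of ICR. Its normalized differences were 0.46, -0.29 and -0.06 in C57, DBA and ICR. All 3 macrophage genes that passed the filter on low signal (a mean above the 40th percentile) were therefore higher in the C57 smoked lung and lower in the DBA smoked lung, none but Chil3 by as much as 2-fold.

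The scavenger receptors Marco and Msr1, which bind bacteria, particles and modified lipoproteins, were too dim for the tests. Marco, a collagenous receptor found on alveolar macrophages, read 41.8 in the smoked and 17.6 in the control lung of C57. In DBA it was below the constant in both, at 6.27 in the smoked and 2.03 in the control lung. In ICR it read 4.91 in the smoked lung, below the constant, and 32.1 in the control lung. DBA was thus the strain with the lowest Marco signal among control lungs, and the C57 and ICR pairs went opposite ways (log2 0.91 and -1.26). The Msr1 probe sets lay between 15.4 and 42.6 (the brighter) and between 6.40 and 24.9 (the dimmer), and they differed in sign in ICR, at 1.01 and -0.49. Values near the constant depend on it and on the scaling, and at the dimmer Msr1 probe set the DBA difference was -0.04 although the deposited intensity was 24.9 in the smoked and 21.7 in the control lung.

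**Figure D1:**
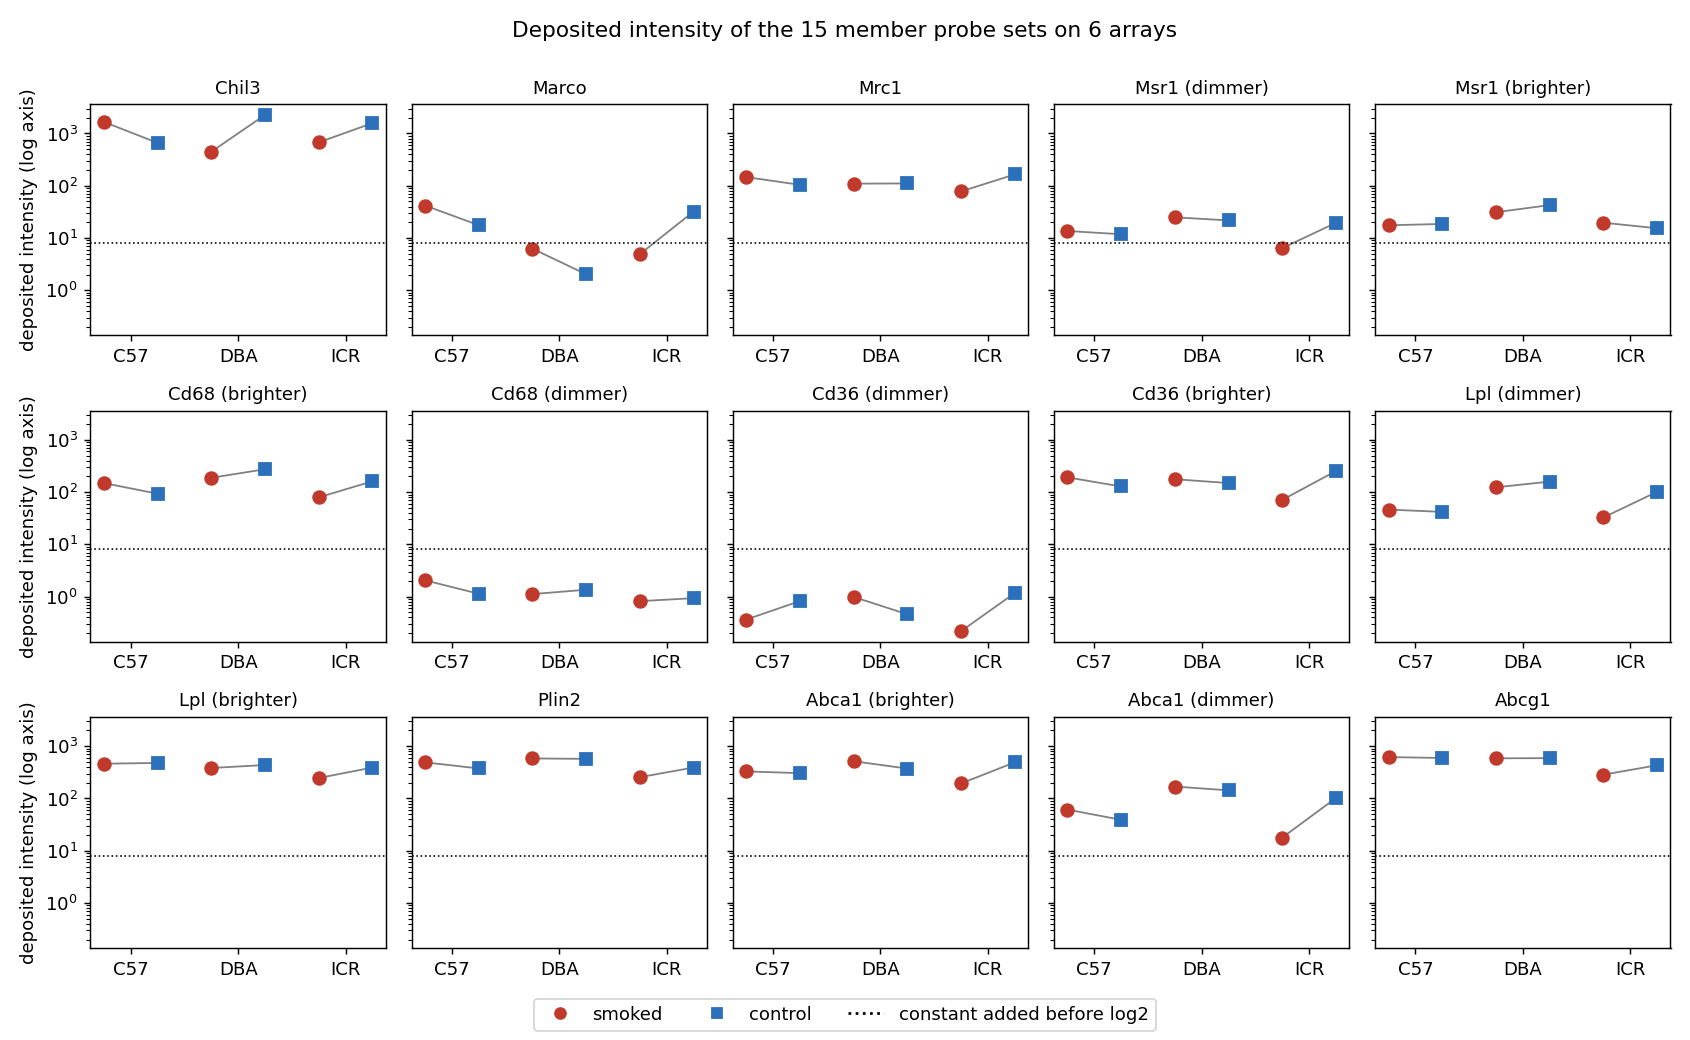
Deposited intensity (log axis) of each of the 15 probe sets on the 6 arrays, smoked (circles) and control (squares) joined within a strain, with the added constant of 8.05 as a dotted line. Chil3 is higher in the smoked lung of C57 (1663 against 660) and lower in that of DBA (447 against 2262), while Marco in DBA and 1 probe set each of Cd68 and Cd36 lie below the constant.

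Among the lipid genes the differences within strains were small, apart from Abca1 and Cd36 in ICR. Cd36, a scavenger receptor and fatty acid transporter, read 192 in smoked and 128 in control lung of C57 at the brighter of its probe sets. It read 176 in smoked and 149 in control lung of DBA, and 71.0 in smoked and 253 in control lung of ICR. After normalization the differences were 0.56 in C57, -0.03 in DBA and -0.79 in ICR. The dimmer Cd36 probe set did not exceed 1.17 on any array.

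Lpl, the lipase that frees fatty acids from lipoprotein triglyceride, was read by a pair of probe sets. At the brighter it had 462 in smoked and 479 in control lung of C57, 383 and 437 in smoked and control lung of DBA, and 246 and 390 in smoked and control lung of ICR. The differences there were 0.03, -0.48 and 0.25 in C57, DBA and ICR. At the dimmer they were 0.12, -0.66 and -0.57, from 46.3 against 41.9 in C57, 124 against 159 in DBA and 32.7 against 101 in ICR, smoked against control. The probe sets of Lpl thus gave the same sign in C57 and DBA and opposite signs in ICR. Without scaling, or with arrays set to a common median, the C57 difference at the brighter probe set was -0.05 and -0.06.

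Plin2, the coat protein of lipid droplets that accumulates in lipid-laden macrophages, read 491 in smoked and 376 in control lung of C57, 584 and 572 in smoked and control lung of DBA, and 255 and 391 in smoked and control lung of ICR. Its differences were 0.44, -0.28 and 0.30 in C57, DBA and ICR, and the DBA one was 0.03 without scaling.

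Abca1 and Abcg1 are the transporters that hand cholesterol to apolipoprotein A1 and to high density lipoprotein. Abcg1 read 619 in smoked and 595 in control lung of C57, 586 and 592 in smoked and control lung of DBA, and 285 and 432 in smoked and control lung of ICR. Its differences were 0.11, -0.32 and 0.32 in C57, DBA and ICR. Abca1 at the brighter probe set read 330 in smoked and 305 in control lung of C57, 516 and 373 in smoked and control lung of DBA, and 193 and 491 in smoked and control lung of ICR, with differences of 0.15, 0.17 and -0.37. At the dimmer probe set the differences were 0.52, -0.04 and -1.33, and the ICR value came from 17.8 in the smoked lung and 102 in the control lung. Both Abca1 probe sets were thus lower in the smoked lung of ICR, by amounts that differed. In that pair the dim smoked array also had the higher 3' to 5' ratio, and its part in these values was not tested.

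Of the 10 probe sets (8 genes) that passed the filter, the C57 smoked lung was higher for all 10, the DBA one for 1 and the ICR one for 3. Over all 7453 probe sets tested, 48.2%, 53.8% and 51.0% were higher in C57, DBA and ICR. Medians over the member probe sets were 0.45 for C57, -0.31 for DBA and -0.19 for ICR, against -0.01, 0.03 and 0.01 over all probe sets. With no scaling, 9, 4 and 0 of the 10 were higher in C57, DBA and ICR, but the medians over all probe sets then shifted to -0.05, 0.31 and -0.87, and relative to those medians 9, 1 and 3 were higher. A difference of at least 2-fold was seen for 1 member in C57 (Chil3, higher), against 1.21% of all probe sets and 0.765% higher, for 1 in DBA (Chil3, lower), against 3.05% and 2.36% lower, and for 1 in ICR (Abca1 at the dimmer probe set, lower), against 6.48% and 3.69% lower. Higher in C57 and lower in DBA together were 9 of the 10, against 23.7% of all probe sets. That count restates the signs given above and is no separate result, and Lpl and Abca1 each enter it by both of their probe sets. All these values are of single pairs and were not tested.

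**Figure D2:**
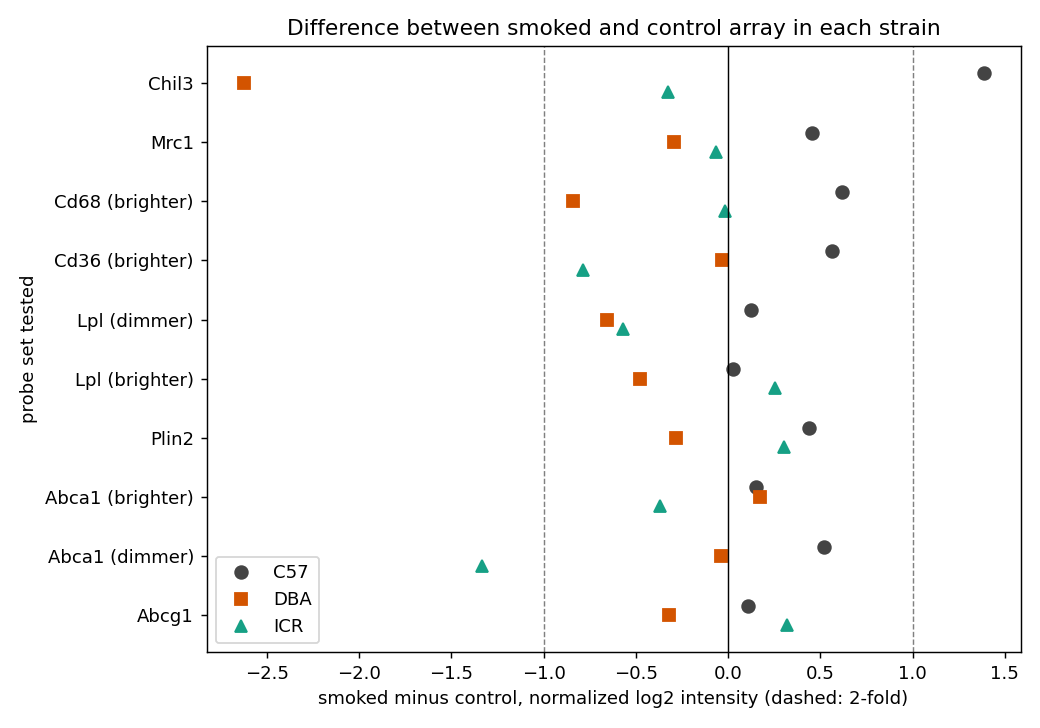
Smoked minus control difference in normalized log2 intensity for the 10 probe sets that passed the filter, with 1 point per strain pair and dashed lines at 2-fold. All 10 C57 points lie above 0 (9 with no scaling or a common median) and 9 of 10 DBA points below it (6 with no scaling), and Chil3 spans from -2.63 in DBA to 1.38 in C57.

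Across strains no member passed the test for a smoke effect. Limma with strain as a block called 0 of the 10 member probe sets at an adjusted p below 0.05, against 0.0403% of all probe sets (3 of 7453), and 0 members and 122 probe sets had an unadjusted p below 0.05. Chil3 had a mean difference of -0.52 (SE 0.57, n = 3 pairs, limma adjusted p = 1), with the DBA pair alone setting the sign: without that pair it was 0.53. The member with the lowest unadjusted p (0.165) was Lpl at the dimmer probe set, with -0.37 (SE 0.24, n = 3 pairs, limma adjusted p = 1). The other fitted differences lay between -0.28 and 0.15, with SE from 0.19 to 0.34. No member had the same sign in all 3 strains, against 17.6% of all probe sets.

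The next question was whether any strain stood apart in its response to smoke. Chil3 was the 1 member called. Its smoked minus control difference in DBA minus that in the other strains was log2 -3.15 (SE 0.48, limma adjusted p = 3.19e-07), and that in C57 minus that in the other strains was 2.86 (SE 0.54, limma adjusted p = 0.00923). Both tests use the same 3 pairs and are not independent. The DBA response called 1 of 10 members (lower), against 0.711% of all probe sets and 0.577% called lower. The C57 response called 1 of 10 (higher), against 0.134% and 0.0939% called higher, and the ICR response 0 of 10 against 0% (2 members and 1067 probe sets had an unadjusted p below 0.05). Each fit had 1 residual degree of freedom, so the SE rested almost wholly on the spread borrowed from other probe sets. The C57 and ICR differences, which serve as the replicates of the DBA test, were themselves 1.71 apart. With the variance of the shared smoke fit, an alternative added after the data were seen, the SE was 1.21 in both tests and Chil3 was not called (limma adjusted p = 0.995 for DBA and 0.999 for C57). Without the filter on low signal it was not called either (adjusted p = 0.289 for DBA and 0.694 for C57), nor without scaling (0.875 for DBA and 1 for C57). The DBA call was also lost with a common median (adjusted p = 0.266), and the C57 call without a variance trend (0.599) or with robust variances (1), all by limma.

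Within the DBA response, next to Chil3 in size was Cd68, at -1.14 (SE 0.54, limma adjusted p = 1). Within the C57 response it was Abca1 at the dimmer probe set, at 1.21 (SE 0.66, limma adjusted p = 1), where Cd68 had 1.05 (SE 0.57). In the ICR response, which includes the dim smoked array, Abca1 at the dimmer probe set had -1.58 (SE 0.41) and Cd36 had -1.05 (SE 0.38). Both were larger there than Chil3, at 0.29 (SE 1.54), and neither was called. All 10 member probe sets had a positive value in the C57 response, with a median of 0.69 against -0.03 over all probe sets, and 7 of 10 a negative value in the DBA response, with a median of -0.51 against 0.02. Without scaling, 8 of 10 were positive in the DBA response, with a median of 0.76 over all probe sets.

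Markers of other myeloid cells are given beside Chil3, which neutrophils and monocytes can also express. Neutrophil markers in C57 summed to 1509 in the smoked and 1395 in the control lung. Lcn2, the iron-chelator carrier lipocalin 2 and 1 of these markers, read 424 in the smoked and 162 in the control lung of C57, a difference of 1.36 beside 1.38 for Chil3, and it too was called higher in the C57 response (2.87, SE 0.59, limma adjusted p = 0.0239), a call that is lost with the variance of the shared smoke fit. The other 8 tested had C57 differences between -0.45 and 0.20, and the median over the 12 markers measured was -0.07. In DBA the sums were 1637 in the smoked and 19371 in the control lung, and of the 9 markers tested 6 were called lower in the DBA response: Ngp (-6.97), Camp (-5.21), S100a8 (-4.71), S100a9 (-4.11), Mmp9 (-3.52) and Lcn2 (-3.01), against 0.577% of all probe sets. With the variance of the shared smoke fit the DBA response called 0 of 7453 probe sets, so these calls and those of Tyrobp and Mmp12 below are lost with it. In ICR they summed to 1229 in the smoked and 3289 in the control lung. Ngp, a granule protein of immature neutrophils, was near or below the constant on 4 of the 6 arrays: it read 8.53 and 6.73 in smoked and control lung of C57, 6.42 in the smoked lung of DBA, and 5.40 and 35.0 in smoked and control lung of ICR, against 2551 in the control lung of DBA. The 4 monocyte markers measured summed to 590 and 559 in smoked and control lung of C57, 768 and 1334 in smoked and control lung of DBA, and 289 and 454 in smoked and control lung of ICR. These sums are of unscaled intensities, and the ICR smoked array was the dimmest. After normalization the median ICR difference was -0.29 for the neutrophil markers and 0.05 for the monocyte markers. The part of these cells in the differences of Chil3, in C57 or DBA, was not tested.

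**Figure D3:**
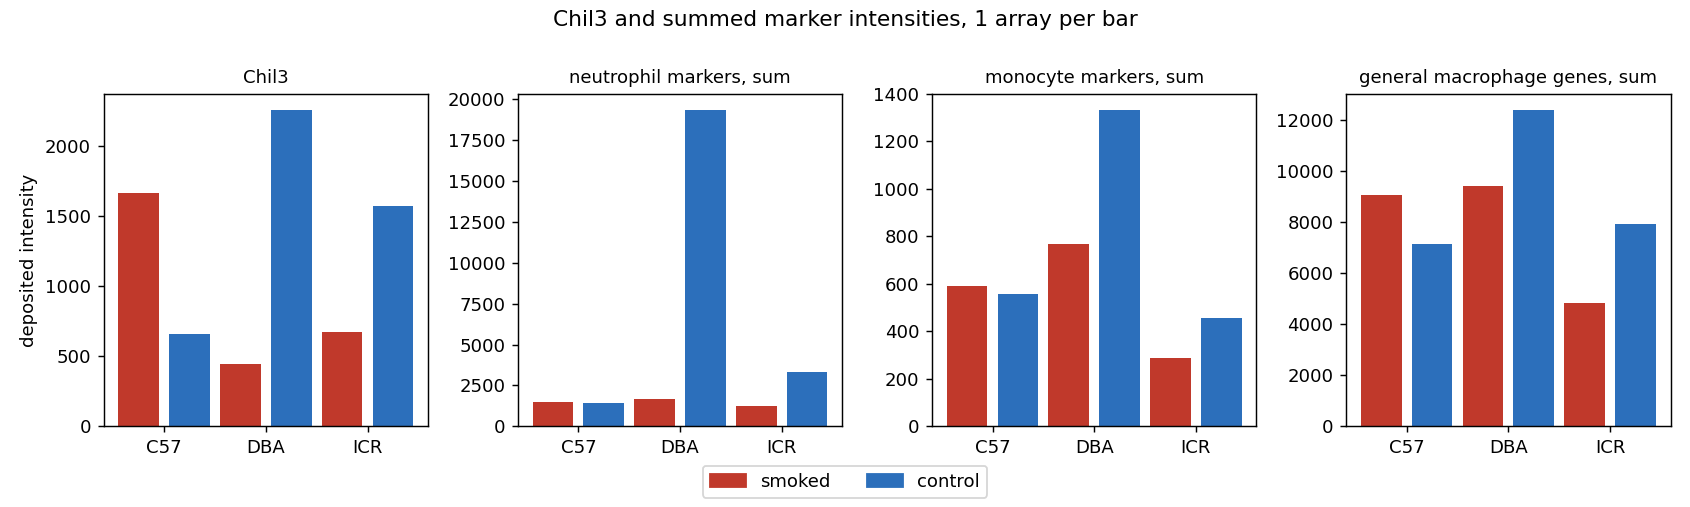
Deposited intensity of Chil3 and summed intensity of the neutrophil markers (12 genes), monocyte markers (4 genes) and general macrophage genes (15 genes), with 1 bar per array. The DBA control array has the highest bar in all 4 panels, and in C57 Chil3 is 1663 in the smoked and 660 in the control lung. The C57 neutrophil sums, 1509 in the smoked and 1395 in the control lung, include Lcn2 at 424 in the smoked and 162 in the control lung.

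General macrophage genes were mostly higher in the C57 smoked lung, lower in the DBA one and mixed in ICR. The 15 genes measured had median differences of 0.33 for C57, -0.74 for DBA and -0.04 for ICR, and of the 12 tested 0 were called for the smoke effect shared by the strains (limma, 4 positive). In the DBA response 11 of 12 were negative, where 51.8% of all probe sets were positive, and 1 was called lower, against 0.577% of all probe sets: Tyrobp, the adaptor through which many myeloid receptors signal, at -2.06 (SE 0.52, limma adjusted p = 0.0183). Tyrobp read 452 in smoked and 239 in control lung of C57, 347 and 844 in smoked and control lung of DBA, and 232 and 457 in smoked and control lung of ICR. Its deposited values thus had the signs of Chil3 within each strain, though its normalized ICR difference was only -0.04. The next in size were C1qc, a complement chain made by tissue macrophages, at -1.45 (SE 0.53), Cd52, a leukocyte surface glycoprotein, at -1.39 (SE 0.53), and C1qb, another complement chain, at -1.29 (SE 0.55), none of them called.

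Of 16 other alveolar macrophage markers listed, 9 were measured, 8 were tested and 0 were called in any of the 7 comparisons. For the shared smoke effect 1 of 8 was positive and the median was -0.08. The largest fitted value was that of Csf2ra, the specific chain of the GM-CSF receptor, at -0.40 (SE 0.23), with 24.8 in smoked and 84.8 in control lung of ICR. Lgals3, the lectin galectin 3, had -0.26 (SE 0.30), Plet1, a surface protein, had 0.20 (SE 0.18), and Csf2rb, the shared chain of the GM-CSF receptor, had -0.18 (SE 0.37). Csf2rb went the way of Chil3 within each strain, with differences of 1.04 for C57, -1.09 for DBA and -0.49 for ICR. Csf2ra and Lgals3 had these signs too, but the rest of those tested did not. Fabp1 (-0.12 in C57, 0.89 in DBA) and Cd9 (-0.08 in C57, 0.11 in DBA) had the opposite signs in these strains. Fabp1 read 121 in the smoked and 49.8 in the control lung of DBA. The DBA smoked array also had the highest liver marker sum (4067), and the part of liver RNA in the Fabp1 value was not tested. Itgax, Car4 and Plet1 shared the signs of Chil3 in only some strains.

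Among the 9 lysosomal and foam macrophage genes tested, 0 were called for the smoke effect and 1 was called lower in the DBA response, against 0.577% of all probe sets. That gene was Mmp12, the macrophage elastase needed for smoke emphysema in mice, at -2.18 (SE 0.55, limma adjusted p = 0.0159). It read 185 in smoked and 745 in control lung of DBA, 56.96 and 123 in smoked and control lung of ICR, and 27.5 and 34.4 in smoked and control lung of C57. Next in that comparison was Ctsd, the lysosomal protease cathepsin D, at -1.09 (SE 0.46, limma adjusted p = 0.793).

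The wider lipid pathway held no gene called for the smoke effect. Among LXR and cholesterol efflux genes 0 of 9 tested were called, with 3 positive and a median of -0.01. The largest was Apoe, the apolipoprotein that accepts cholesterol from macrophages, at -0.26 (SE 0.20), and next came Lpcat3, a phospholipid remodelling enzyme, at -0.22 (SE 0.21). Among PPARG and fatty acid genes 0 of 13 were called, with 1 positive and a median of -0.11. Slc27a1, a fatty acid transport protein, had -0.44 (SE 0.29), Plin4, a lipid droplet protein, had -0.32 (SE 0.29), Pdk4, which restrains glucose oxidation, had -0.24 (SE 0.38), and Angptl4, an inhibitor of Lpl, had -0.23 (SE 0.27). Of 6 further scavenger and uptake receptors 0 were called and 5 were positive, the largest being Fcgr2b, an inhibitory antibody receptor, at -0.41 (SE 0.24). Of 4 alternative activation genes, the programme to which Chil3 belongs, 0 were called and 3 were positive, the largest being Ccl17, a chemokine, at 0.57 (SE 0.29). The 5 adipocyte markers, for fat that could carry Lpl and Cd36, summed to 365 and 374 in smoked and control lung of C57, 446 and 417 in smoked and control lung of DBA, and 198 and 372 in smoked and control lung of ICR. Muscle can carry both genes too. The 8 skeletal muscle markers summed to 4037 and 5744 in smoked and control lung of C57, 419 and 852 in smoked and control lung of DBA, and 107 and 178 in smoked and control lung of ICR. The 8 cardiac markers summed to 5567 and 6894 in smoked and control lung of C57, 7533 and 4409 in smoked and control lung of DBA, and 2038 and 4305 in smoked and control lung of ICR. These sums too are unscaled, on ICR arrays of unequal brightness. After normalization the median ICR differences were -0.18 for adipocyte, 0.24 for skeletal muscle and -0.08 for cardiac markers. The part of fat and muscle in the values of Lpl and Cd36 was not tested.

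The last comparison was between strains, with smoked and control arrays of a strain averaged (2 arrays each). Limma called 0 of 10 member probe sets in DBA against C57, against 1.73% of all probe sets, with 2 members and 858 probe sets at an unadjusted p below 0.05. It called 0 of 10 in ICR against C57, against 2.29%, with 3 members and 1345 probe sets at an unadjusted p below 0.05. In ICR against DBA it also called 0 of 10, against 1.17%, with 1 member and 1160 probe sets at that level. Closest in DBA against C57 was Lpl at the dimmer probe set (log2 1.20, SE 0.30, limma adjusted p = 0.0992). It read 124 and 159 in smoked and control lung of DBA, and 46.3 and 41.9 in smoked and control lung of C57. At the other Lpl probe set the fitted difference had the opposite sign, at -0.30 (SE 0.25, limma adjusted p = 0.739). Abca1 at the dimmer probe set had log2 1.22 (SE 0.41, limma adjusted p = 0.258), while the brighter probe set gave 0.34 (SE 0.24). The dimmer one read 169 and 143 in smoked and control lung of DBA, and 61.3 and 39.1 in smoked and control lung of C57. Of the 6 skeletal muscle markers tested, limma called 5 lower in DBA than in C57 and 5 lower in ICR than in C57, and their part in the strain differences of Lpl was not tested. The beta-actin ratio was also higher on both C57 arrays than on both DBA arrays, and its part in these differences was not tested.

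In ICR against C57 all 10 member probe sets had a positive fitted difference, from 0.04 for Abcg1 to 0.95 for Lpl at the dimmer probe set, against 48.6% of all probe sets. Without scaling 9 of these 10 were negative, while the median over all probe sets was then -0.73, and with a common median Abcg1 was negative. In ICR against DBA the largest was Mrc1, at 1.01 (SE 0.27, limma adjusted p = 0.132), with normalized log2 values of 7.47 and 7.53 in smoked and control lung of ICR and 6.34 and 6.64 in smoked and control lung of DBA. Strain differences of Chil3 depended on which array was kept. DBA against C57 was -0.14 (SE 0.70) with all arrays, -1.72 (limma adjusted p = 0.000369) without the DBA control array and 1.43 (limma adjusted p = 0.00328) without the DBA smoked array. The called strain differences among the listed pathway genes were those of Mmp12, higher in DBA than in C57 (log2 3.01, SE 0.49, limma adjusted p = 0.0163), and Slc27a1, lower in ICR than in C57 (log2 -2.17, SE 0.35, limma adjusted p = 0.0182). Mmp12 was 1 of 9 genes tested in its list, against 1.73% of all probe sets, and Slc27a1 1 of 13, against 2.29%. Slc27a1 read 97.5 and 127 in smoked and control lung of C57 and 24.2 in the control lung of ICR. In the ICR smoked lung, on the dimmest array, it read 4.17, below the constant.

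**Figure D4:**
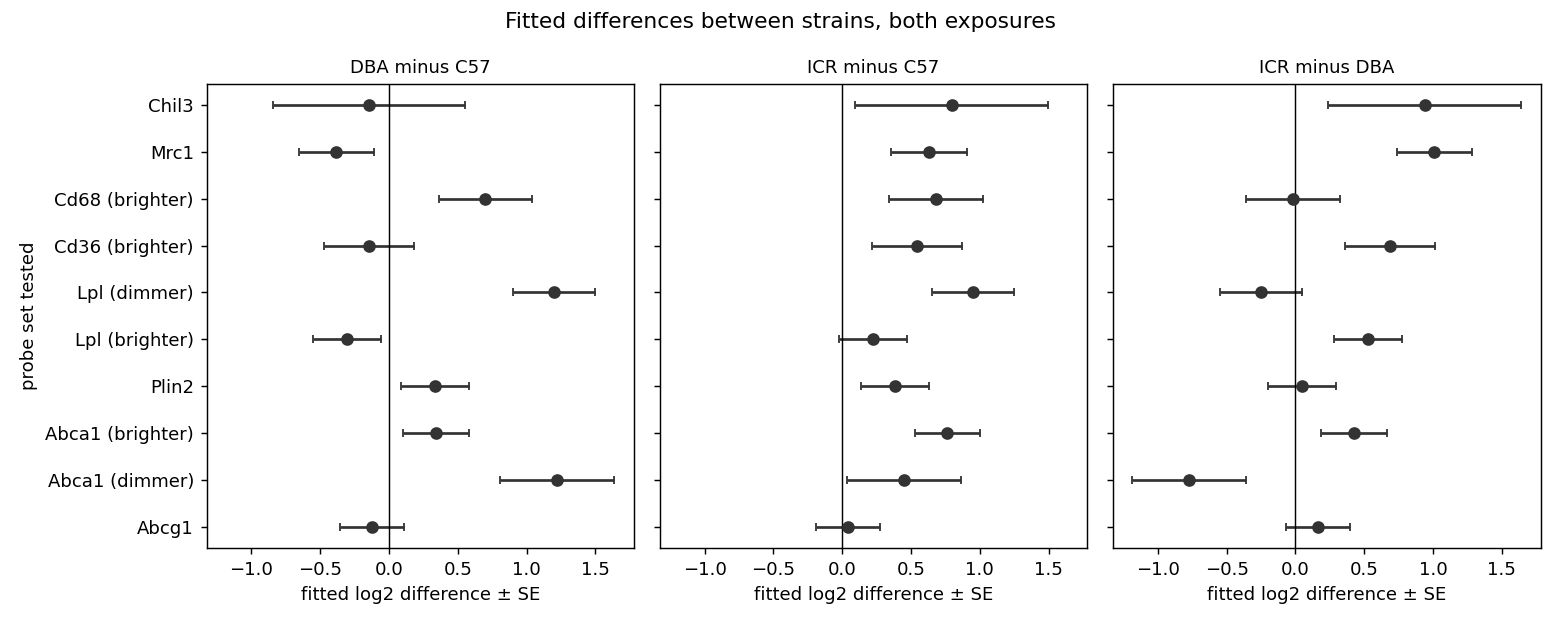
Fitted log2 difference between strains, with bars of 1 SE, for the 10 probe sets that passed the filter, from 2 arrays per strain. None was called, Lpl at the dimmer probe set and Abca1 at the dimmer probe set are the farthest right in DBA minus C57, and the bars of Chil3 are the widest.

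Members did not vary as 1 group over the 6 arrays. Between genes, Pearson r of normalized log2 values was 0.90 for Cd68 with Plin2, 0.86 for Lpl (brighter) with Abcg1, 0.835 for Mrc1 with Lpl (brighter) and 0.82 for Mrc1 with Cd36. It was only 0.30 for Cd68 with Mrc1 and -0.35 for Cd68 with Marco. Marco did not pass the filter and was below the constant on 3 of the 6 arrays. These r values describe 6 arrays that share strain pairs, depth and RNA quality. Among 5727 other genes tested, the most like Chil3 were Igkv6-23, an immunoglobulin light chain segment (r = 0.973), Apobec1, an RNA-editing enzyme (0.960), and Etfb, an electron transfer flavoprotein subunit (0.953). Igkv6-23 read 2389 and 1120 in smoked and control lung of C57, 906 and 4100 in smoked and control lung of DBA, and 980 and 1876 in smoked and control lung of ICR. Its deposited values had the signs of Chil3 in each pair of arrays. As it was picked for its likeness to Chil3 on these arrays, that is no separate result. In ICR only 4.09% of all probe sets tested were higher in the smoked lung without scaling. Those most like Lpl were Adcy7 (r = 0.981), Strn4 (0.98) and Gdpd3 (0.979).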

How the data were processed

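Lung RNA was measured on 6 arrays, 1 per group, grouped by their titles. The authors deposited 1 probe set intensity on a linear scale per array, from 0.0305 to 10579. Per the labels' protocols, RNA was reverse-transcribed from an oligo(dT) primer and labelled with biotin. No label used here names the summary method, software or scaling. From the deposited values, log2(intensity + 8.05) was taken and quantile normalized, 66 control probe sets were dropped, and the 7453 probe sets whose mean exceeded the 40th percentile were tested with limma 3.58.1 in R 4.3.3 (lmFit, eBayes with a trend, 2-sided, Benjamini-Hochberg over all tested). The smoke and strain effects came from 1 fit with 2 residual degrees of freedom, each response from a fit with 1. P-values measure only the spread between these arrays, and the number of arrays limits precision. Genes were named from the platform annotation, by the probe set with the highest mean. Named genes were all members, for each list up to 4 genes with the largest absolute fitted difference in the comparison described, and the 3 genes most like Chil3 and Lpl. The called neutrophil markers and the values of Csf2rb by strain were singled out after they were seen. Members and lists were chosen with earlier results of these data known. Tests were tried on simulated data. Plots used matplotlib 3.10.9 in Python 3.11.15.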

Additional observations from a re-analysis of the deposited data

Results flagged for a closer look

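The response of Chil3 to smoke differed between strains in the fitted tests, by log2 -3.15 for DBA against the other strains (limma adjusted p = 3.19e-07) and by 2.86 for C57 against the other strains (limma adjusted p = 0.00923). Each test sets 1 pair of arrays against 2 pairs, with 1 residual degree of freedom and an SE borrowed from other probe sets. Both calls are lost with the variance of the shared smoke fit (SE 1.21, adjusted p = 0.995 for DBA and 0.999 for C57), with no filter and with no scaling. The signs are those of 1 smoked and 1 control array in each strain, higher in C57 and lower in DBA and ICR. The DBA control array also had the highest sums of neutrophil, monocyte and general macrophage markers.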

How the results depend on the processing

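No paired analysis was possible because every group has 1 array, numbered 1, and the strain pairing is already in the fit. The 0 member calls for smoke held under every alternative run. In the C57 response the Chil3 call was lost (0 members called) with no filter, no scaling, no variance trend, robust variances and the variance of the shared smoke fit, and in the DBA response (0 members called) with no filter, no scaling, a common median and that variance. With no scaling 3 of 10 member probe sets, of 2 genes, were called lower in the ICR response, Cd36 (-2.12), brighter Abca1 (-1.59) and dimmer Abca1 (-2.48), where 1780 of all 7453 probe sets were called lower. Responses could not be refitted without a pair, as no residual degree of freedom is left. The cause of these changes was not tested. Dim probe sets and 1 array per group limit all values.

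Lpl and Abca1 have a brighter and a dimmer probe set. With no scaling the sign turned for smoke at Mrc1 (-0.19), Abcg1 (-0.18) and Plin2 (-0.064), and for DBA against C57 at Cd36 (0.045). For ICR against C57 it turned at Cd68 (-0.052), Mrc1 (-0.11), Abcg1 (-0.78), Chil3 (-0.023), Cd36 (-0.20), brighter Abca1 (-0.035), dimmer Abca1 (-0.10), brighter Lpl (-0.59) and Plin2 (-0.43). For ICR against DBA it turned at Abcg1 (-0.73), Cd36 (-0.24), brighter Abca1 (-0.49), brighter Lpl (-0.39) and Plin2 (-0.85). In the DBA response it turned at Mrc1 (0.26), dimmer Lpl (0.31), Abcg1 (0.25), brighter Lpl (0.16) and Plin2 (0.14), and in the ICR response at Cd68 (-1.003), Abcg1 (-0.61), Chil3 (-0.72), brighter Lpl (-0.53) and Plin2 (-0.80). With a common median it turned at Abcg1 for ICR against C57 (-0.075) and at Cd68 for ICR against DBA (0.044).

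Leaving out each pair in turn, the smoke difference ran between -0.18 and 0.20 for Mrc1, -0.43 and 0.30 for Cd68, -1.48 and 0.53 for Chil3, -0.22 and 0.14 for brighter Lpl, -0.10 and 0.21 for Abcg1, -0.41 and 0.27 for Cd36, -0.11 and 0.16 for brighter Abca1, and -0.69 and 0.24 for dimmer Abca1. Leaving out each array in turn, DBA against C57 called 0 to 3 members and ran between -1.72 and 1.43 for Chil3, -0.63 and 0.34 for Cd36, -0.39 and 0.14 for Abcg1, and -0.62 and 0.0057 for brighter Lpl. The 3 calls came without the DBA smoked array (Chil3 1.43, dimmer Lpl 1.41, Cd68 1.27), with 1 each without the C57 smoked (dimmer Abca1 1.82), C57 control (Chil3 -1.57) and DBA control arrays (Chil3 -1.72). ICR against C57 called 0 to 1, Chil3 at 2.23 without the C57 smoked and 0.80 without the DBA smoked array, and ran between -0.63 and 2.23 for Chil3, -0.17 and 0.25 for Abcg1, -0.34 and 1.24 for dimmer Abca1, and -0.014 and 0.46 for brighter Lpl. ICR against DBA called 0 to 1, Chil3 at 2.52 without the DBA control array, and ran between -0.64 and 2.52 for Chil3, -0.59 and 0.55 for Cd68, -0.10 and 0.43 for Abcg1, -0.27 and 0.38 for Plin2, and -1.56 and 0.017 for dimmer Abca1.

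Over all probe sets, the smoke effect called 3, against 1 with no filter, 1 with no variance trend, 0 with no strain block and 0 to 11 without a pair. DBA against C57 called 129 (65 higher, 64 lower), against 66 with no filter, 85 with no scaling (64 higher, 21 lower) and 102 to 298 without an array. ICR against C57 called 171 (69 higher, 102 lower), against 44 with no filter, 145 with no scaling (7 higher, 138 lower) and 32 to 517 without an array. ICR against DBA called 87 (38 higher, 49 lower), against 38 with no filter, 261 with no scaling (4 higher, 257 lower) and 12 to 220 without an array. The C57 response called 10, against 36 with a common median, 4 at the 60th percentile filter, 2 with robust variances and 0 with no filter, no scaling, no variance trend or the shared variance. The DBA response called 53, against 27 with a constant of 1, 25 at the 60th percentile filter, 9 with no filter, 8 with a common median, 7 with no scaling and 0 with the shared variance. The ICR response called 0, against 1787 with no scaling (7 higher, 1780 lower).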
